A study of Mus musculus with 16 samples.

Results

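A set of 10 marker genes of liver macrophages was followed in whole mouse liver. It held the Kupffer cell genes Clec4f, Vsig4, Timd4, Marco and Cd5l and the pan-macrophage genes C1qa, C1qb, C1qc, Adgre1 and Csf1r, taken by symbol from a list of resident and pan-macrophage markers. Each was present in both deposited count tables, among 24421 gene rows per table, and all 10 were tested in each comparison. Messenger RNA had been sequenced in 16 liver libraries in 4 groups of 4, and no source used says whether the BKO controls F5 and F5-2 came from 1 animal. The DKO livers carried floxed alleles of Arid1a and Arid1b with the Alb-Cre transgene, and their controls carried both floxed alleles without Cre. The BKO livers carried floxed Arid1b with Alb-Cre, and their controls carried floxed Arid1b without Cre. Alb-Cre is a recombinase driven by the albumin promoter, which is active in hepatocytes, so macrophages are not the cells it targets. No group with Arid1a deleted alone was analysed here, and the sources used here do not give the ages of the mice. The proteins ARID1A and ARID1B replace each other as subunits of the BAF chromatin remodelling complex.

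Kupffer cells are the macrophages that live in the liver sinusoids, where they clear particles, bacteria and dying cells from the blood. Those that derive from embryonic precursors carry the lectin CLEC4F, the complement receptor VSIG4 and the phosphatidylserine receptor TIM4, and macrophages that enter the liver later acquire these proteins slowly, TIM4 last. C1q, F4/80 (encoded by Adgre1) and the growth factor receptor CSF1R are shared by most tissue macrophages. In whole-liver RNA, fewer cells of a type and less RNA per cell cannot be told apart.

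A library of the DKO experiment held 8699417 to 11031443 counts and one of the BKO experiment 21151726 to 40551934. Levels below are CPM, counts scaled to library size with TMM factors, given as mean ± SD over n = 4 libraries unless stated. Arid1b, the targeted gene, was lower in BKO livers (44.3 ± 3.98 CPM against 84.8 ± 2.01, edgeR adjusted p = 0.00154) and in DKO livers (60.03 ± 13.7 against 89.3 ± 9.17, edgeR adjusted p = 0.0167). Arid1a in DKO livers was at 107.5 ± 6.08 against 123.7 ± 10.2 CPM and did not pass (edgeR adjusted p = 0.149). The hepatocyte gene Alb made up 3.76% to 6.38% of counts in the DKO group and 8.62% to 9.94% in its controls. The 10 markers together made up 0.0597% to 0.0797% in the DKO group and 0.0358% to 0.0633% in its controls. In the BKO experiment these shares were 0.0232% to 0.0739% and 0.0310% to 0.0417%. A pair of libraries stood apart over these markers. The DKO control WT-7069 was the highest of the 4 controls for all 10 genes, at 1.41 to 2.22 times the mean of the other 3 controls. The BKO library F4 was the highest of the 8 libraries of its experiment for all 10 genes, at 2.05 to 15.5 times the mean of the other 3 BKO libraries. Results that rest on either library are given with and without it.

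Levels of different genes can be compared only per length, here as CPM per kilobase of merged exons. In DKO controls Clec4f stood first at 48.9 ± 10.1 per kilobase, followed by Cd5l at 41.7 ± 12.9, C1qa at 36.4 ± 8.02, C1qb at 35.7 ± 10.8 and C1qc at 20.8 ± 4.44. Vsig4 at 18.3 ± 3.58, Csf1r at 14.9 ± 3.83, Marco at 6.99 ± 3.33, Adgre1 at 6.68 ± 2.43 and Timd4 at 5.59 ± 2.48 came next. Only the steps from C1qb to C1qc and from Csf1r to Marco exceeded the larger SD of the pair. Clec4f also stood first in BKO controls, at 36.7 ± 7.20 per kilobase, and Marco stood last there at 1.52 ± 0.565. In DKO livers Clec4f ranked 5 at 35.3 ± 6.55 per kilobase, after C1qb at 74.7 ± 3.74, Cd5l at 71.2 ± 7.05, C1qa at 63.2 ± 5.15 and C1qc at 40.7 ± 2.19. The step from C1qc to Clec4f was smaller than the larger SD of that pair, and the step from C1qa to C1qc was 4.37 times it.

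The first comparison asked how each marker differed between DKO livers and their controls. Marco, Cd5l and the 3 C1q chains rose by 1.71-fold to 2.43-fold, whereas Clec4f, Vsig4, Timd4, Adgre1 and Csf1r did not pass. Thus 5 of 10 members were called higher and 0 lower by edgeR, with 1 member, Clec4f, lower at an unadjusted p under 0.05, 1 called lower by DESeq2 and 0 by limma voom. Over all 12848 genes tested, 19.2% were called higher and 16.6% lower. All 5 called members had every DKO library above every control, a pattern found in 18.5% of genes tested. The median log2 fold change of the members was 0.62, beside 0.02 for all genes tested. With scaling by total counts only, the median of all genes became 0.20, calls split into 3266 higher and 1269 lower instead of 2467 and 2137, and 7 members were called higher. Without WT-7069, 7 members were also called higher, Adgre1 and Csf1r being the added ones in both settings. With all 16 libraries in one fit, which adds the spread of the BKO experiment, 3 members were called higher: Marco (adjusted p = 0.288) and Cd5l (adjusted p = 0.0583) no longer passed.

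**Figure D1:**
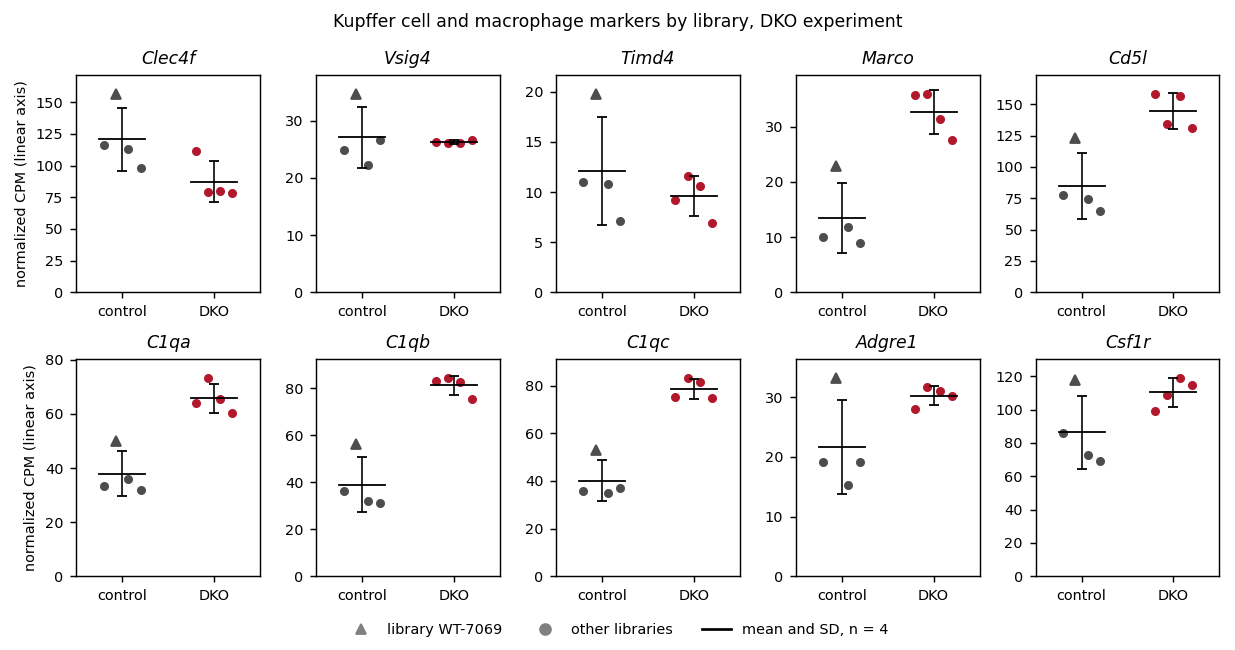
Normalized CPM (linear y axis) of the 10 markers in the 4 control libraries (grey) and 4 DKO libraries (red), 1 point per library, with mean and SD bars; the triangle marks control WT-7069. Marco, Cd5l, C1qa, C1qb and C1qc have all 4 DKO points above all 4 controls, and WT-7069 is the highest control in each of the 10 panels.

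Marco encodes a class A scavenger receptor that binds bacteria and particles, and lies on chromosome 1 (120474538 to 120505024, GRCm38, GENCODE M21). It was at 35.8, 35.9, 31.4 and 27.7 CPM in DKO-7068, DKO-7070, DKO-7112 and DKO-7137. Its control levels were 10.1, 22.9, 11.9 and 8.96 CPM in WT-7067, WT-7069, WT-7114 and WT-7139. Every DKO library was above every control, and WT-7069 lay between the other controls and the DKO libraries. Marco rose 2.43-fold, from 13.5 ± 6.42 to 32.7 ± 3.96 CPM (log2 fold change 1.27 with SE 0.27, edgeR adjusted p = 0.00564). Against the 3 controls without WT-7069, at 10.3 ± 1.48 CPM, the ratio was 3.17.

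Cd5l encodes AIM, a secreted scavenger receptor protein made by tissue macrophages, and lies on chromosome 3 (87357881 to 87371073). It was at 158, 134, 157 and 131 CPM in DKO-7068, DKO-7070, DKO-7112 and DKO-7137, and at 77.6, 123.5, 74.04 and 64.5 CPM in WT-7067, WT-7069, WT-7114 and WT-7139. The lowest DKO library was above WT-7069 by a small margin and above the other 3 controls by a wide one. Cd5l rose 1.71-fold, from 84.9 ± 26.3 to 145.04 ± 14.4 CPM (log2 fold change 0.77 with SE 0.19, edgeR adjusted p = 0.00947). Without WT-7069 its log2 fold change was 1.00 (edgeR adjusted p = 0.000503).

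C1qa, C1qb and C1qc encode the A, B and C chains that assemble into C1q, the recognition subunit of the classical complement pathway. The 3 genes lie side by side on the minus strand of chromosome 4, C1qb at 136880129 to 136886187, C1qc at 136889804 to 136893065 and C1qa at 136895917 to 136898803. Gaps of 3616 and 2851 bases separate them. The chains rose together in DKO livers. C1qb was at 83.2, 84.1, 82.4 and 75.2 CPM in DKO-7068, DKO-7070, DKO-7112 and DKO-7137, and at 36.05, 56.1, 32.1 and 31.2 CPM in WT-7067, WT-7069, WT-7114 and WT-7139. It rose 2.09-fold, from 38.9 ± 11.7 to 81.2 ± 4.06 CPM (log2 fold change 1.06 with SE 0.18, edgeR adjusted p = 0.00112). C1qc was at 75.1, 83.04, 81.5 and 74.9 CPM in DKO-7068, DKO-7070, DKO-7112 and DKO-7137, and at 35.7, 52.9, 34.8 and 36.97 CPM in WT-7067, WT-7069, WT-7114 and WT-7139. For both chains the 4 DKO libraries lay close together, and the group below them was spread by WT-7069. C1qc rose 1.96-fold, from 40.1 ± 8.58 to 78.7 ± 4.23 CPM (log2 fold change 0.97 with SE 0.14, edgeR adjusted p = 0.000502). C1qa was at 64.1, 73.1, 65.3 and 60.4 CPM in DKO-7068, DKO-7070, DKO-7112 and DKO-7137, and at 33.5, 50.1, 35.9 and 31.9 CPM in WT-7067, WT-7069, WT-7114 and WT-7139. It rose 1.74-fold, from 37.9 ± 8.34 to 65.8 ± 5.35 CPM (log2 fold change 0.79 with SE 0.15, edgeR adjusted p = 0.00202). None of these 3 calls was lost when any 1 library of the experiment was left out, and without WT-7069 the ratios of means were 1.95 for C1qa, 2.45 for C1qb and 2.20 for C1qc. Per kilobase, the ratio of C1qb to C1qa within a library was 1.10 to 1.24 in DKO livers and 0.854 to 1.07 in their controls. The ratio of C1qc to C1qa was 0.611 to 0.672 against 0.522 to 0.624, ranges that overlap. Both ratios are description only. The share of all genes whose ratio to C1qa separates the groups was not computed.

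Promoter sequence was read for members that were called higher and for members that did not pass. RefSeq (GRCm38.p6) entries were used for 7 members, and the 250 bases before the annotated start are shown for Marco, Cd5l and C1qb, which rose, and for Vsig4 and Timd4, which did not pass. Capitals mark GAGGAA on either strand (TTCCTC on the other), the core bound by PU.1, the myeloid transcription factor encoded by Spi1.
Marco, chr1:120505025-120505274, minus strand: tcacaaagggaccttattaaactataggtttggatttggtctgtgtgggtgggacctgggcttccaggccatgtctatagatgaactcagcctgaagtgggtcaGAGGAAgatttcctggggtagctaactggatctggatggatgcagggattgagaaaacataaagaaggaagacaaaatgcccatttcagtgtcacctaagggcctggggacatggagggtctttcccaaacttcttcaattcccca
Cd5l, chr3:87357631-87357880, plus strand: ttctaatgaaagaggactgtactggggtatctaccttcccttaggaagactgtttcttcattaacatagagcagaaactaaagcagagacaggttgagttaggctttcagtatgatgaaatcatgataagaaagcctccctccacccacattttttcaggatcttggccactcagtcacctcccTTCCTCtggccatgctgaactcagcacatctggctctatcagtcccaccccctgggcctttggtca
C1qb, chr4:136886201-136886450, minus strand: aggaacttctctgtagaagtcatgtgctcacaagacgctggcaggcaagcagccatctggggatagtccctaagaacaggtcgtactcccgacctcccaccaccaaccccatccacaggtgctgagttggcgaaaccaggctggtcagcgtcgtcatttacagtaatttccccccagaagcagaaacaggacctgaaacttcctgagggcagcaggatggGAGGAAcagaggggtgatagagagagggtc
Vsig4, chrX:96293439-96293688, minus strand: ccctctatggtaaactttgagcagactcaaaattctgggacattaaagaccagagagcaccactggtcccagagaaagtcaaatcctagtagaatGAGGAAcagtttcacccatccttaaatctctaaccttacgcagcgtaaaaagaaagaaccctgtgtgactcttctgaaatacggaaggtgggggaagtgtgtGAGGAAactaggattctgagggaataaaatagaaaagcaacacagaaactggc
Timd4, chr11:46810549-46810798, plus strand: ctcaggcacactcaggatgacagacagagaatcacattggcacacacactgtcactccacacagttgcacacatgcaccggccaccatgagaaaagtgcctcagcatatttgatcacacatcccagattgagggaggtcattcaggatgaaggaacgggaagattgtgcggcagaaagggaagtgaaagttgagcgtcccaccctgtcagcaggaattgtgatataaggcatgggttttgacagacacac
GAGGAA occurred in 5 of the 7 member promoters, those of Marco, Cd5l, C1qb, C1qc and Vsig4, and in 23.3% of all 32851 promoter entries at the same length. It was not found in those of Clec4f and Timd4. In C1qb the match began at position -30 and in Marco at position -146, counted back from the start. Vsig4, whose level did not pass the test, held 2 matches. The longer ETS core AGGAAGT, which overlaps the first motif by up to 5 letters, was in 2 of the 7 (7.69% of all entries), the MAF recognition core TGCTGA in 4 (16.1%), the nuclear receptor core AGGTCA in 3 (14.02%) and the AP-1 site TGANTCA in 0 (6.75%). These are letter matches on both strands and describe the windows only.

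Clec4f encodes a C-type lectin found in mice on Kupffer cells and on few other cells, and lies on chromosome 6 (83644542 to 83656187), with Cd207 15027 bases to its right. It was at 111.5, 79.3, 79.8 and 78.3 CPM in DKO-7068, DKO-7070, DKO-7112 and DKO-7137, and at 116, 156, 113 and 97.9 CPM in WT-7067, WT-7069, WT-7114 and WT-7139. DKO-7070, DKO-7112 and DKO-7137 lay below every control, and DKO-7068 lay among the controls. The means were 87.2 ± 16.2 and 120.8 ± 24.9 CPM (log2 fold change -0.47 with SE 0.17, 95% interval -0.84 to -0.10, edgeR adjusted p = 0.0503), which did not pass. Without DKO-7068 the DKO mean was 79.2 ± 0.742 CPM (n = 3) and Clec4f was called lower (log2 fold change -0.62, adjusted p = 0.0174). It was also called lower without WT-7139 (-0.57, adjusted p = 0.0309), and with a term that set WT-7067, DKO-7068, WT-7069 and DKO-7070 apart from the other 4 libraries (-0.46, adjusted p = 0.0252). That grouping follows the numbers in the library names, which the labels do not call a batch. Without WT-7069 it was at -0.33 (adjusted p = 0.126), and when scaled by total counts at -0.28 (adjusted p = 0.29).

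Vsig4 encodes CRIg, a receptor for complement C3 fragments on Kupffer cells, and lies on chromosome X (96247203 to 96293438). It was at 26.4, 26.2, 26.1 and 26.7 CPM in DKO-7068, DKO-7070, DKO-7112 and DKO-7137, and at 24.97, 34.7, 22.3 and 26.6 CPM in WT-7067, WT-7069, WT-7114 and WT-7139. The DKO libraries were nearly equal and sat within the control range. The log2 fold change was -0.05 (SE 0.13, 95% interval -0.34 to 0.25, edgeR adjusted p = 0.824), and its sign turned to 0.09 without WT-7069 and to 0.13 with total counts. The interval leaves out the rises measured for Marco, Cd5l and the C1q chains.

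Timd4 encodes TIM4, the phosphatidylserine receptor of long-lived Kupffer cells, and lies on chromosome 11 (46810800 to 46844332). It was at 9.20, 11.6, 10.6 and 6.94 CPM in DKO-7068, DKO-7070, DKO-7112 and DKO-7137, and at 10.97, 19.8, 10.8 and 7.07 CPM in WT-7067, WT-7069, WT-7114 and WT-7139. The groups overlapped in full apart from WT-7069. The log2 fold change was -0.35 (SE 0.29, 95% interval -0.99 to 0.30, edgeR adjusted p = 0.389), and without WT-7069 it was -0.01. Its counts were the lowest of the 10 members in DKO livers, at 67 to 129 per library.

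Adgre1 encodes F4/80, an adhesion receptor used to mark mouse macrophages, and lies on chromosome 17 (57358691 to 57483527). It was at 28.0, 31.8, 31.04 and 30.2 CPM in DKO-7068, DKO-7070, DKO-7112 and DKO-7137, and at 19.1, 33.1, 15.3 and 19.1 CPM in WT-7067, WT-7069, WT-7114 and WT-7139. WT-7069 alone among the controls was above the DKO libraries. The log2 fold change was 0.48 (SE 0.21, edgeR adjusted p = 0.101), and without WT-7069 it was 0.76 (adjusted p = 0.0018). Csf1r encodes the receptor for CSF1 and IL-34, on which Kupffer cells depend, and lies on chromosome 18 (61100598 to 61132149). It was at 99.2, 109, 119 and 115 CPM in DKO-7068, DKO-7070, DKO-7112 and DKO-7137, and at 86.1, 117.5, 72.5 and 69.02 CPM in WT-7067, WT-7069, WT-7114 and WT-7139. Its groups overlapped through WT-7069. The log2 fold change was 0.35 (SE 0.16, edgeR adjusted p = 0.118), and without WT-7069 it was 0.53 (adjusted p = 0.00926). Of the 10 members Csf1r alone overlaps other annotated genes, Hmgxb3 on the opposite strand and Mir6983, and the sources used here do not give the strand setting of the counting.

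**Figure D2:**
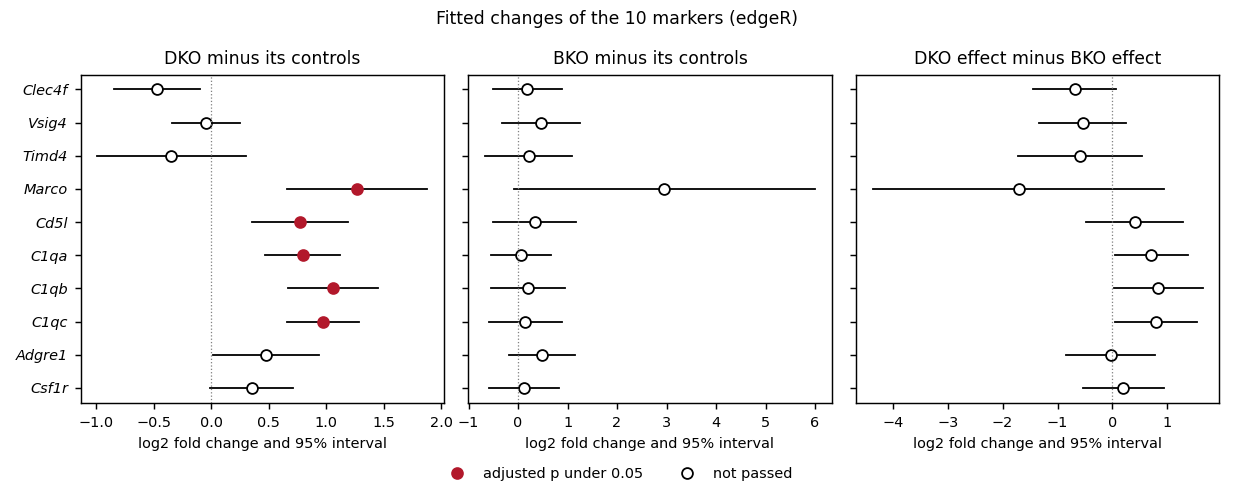
Fitted log2 fold change (point) and 95% interval (line) of each marker for DKO against its controls, BKO against its controls and the difference of both effects; filled points passed at an adjusted p under 0.05. In DKO livers 5 markers passed, all higher, from 0.77 for Cd5l to 1.27 for Marco, and in the other 2 panels 0 of 10 passed.

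A ratio of 2 genes within a library does not depend on the scaling between libraries. Each member was therefore divided by Csf1r, giving 9 ratios per experiment, as description without a test. Clec4f over Csf1r was 0.672 to 1.12 in DKO livers and 1.33 to 1.56 in their controls. Vsig4 over Csf1r was 0.219 to 0.266 against 0.290 to 0.386. In both, every DKO library was below every control, as in 22.1% of all genes divided by Csf1r. The ratios of 5 members had every DKO library above every control, as in 8.17% of genes. C1qb over Csf1r was 0.656 to 0.839 against 0.419 to 0.478, and C1qc was 0.653 to 0.764 against 0.415 to 0.536. C1qa was 0.527 to 0.673 against 0.389 to 0.495, Marco 0.241 to 0.361 against 0.117 to 0.195, and Cd5l 1.14 to 1.59 against 0.901 to 1.05. WT-7069 held the control value nearest to the DKO group for Clec4f (1.33), C1qb (0.478), Marco (0.195) and Cd5l (1.05). The ratios of Timd4 and Adgre1 overlapped between groups. With Adgre1 as denominator Clec4f, Vsig4 and Timd4 had every DKO library below every control, as in 21.0% of all genes divided by Adgre1, and Marco, C1qb and C1qc every one above, as in 6.25%. With Ptprc (CD45, carried by all leukocytes) as denominator the mean of all 10 members was lower in DKO livers, and 8 of them had every DKO library below every control. This pattern was found in 80.9% of all genes divided by Ptprc. Ptprc itself rose 3.20-fold in DKO livers, from 13.07 ± 2.70 to 41.8 ± 10.3 CPM (edgeR adjusted p = 0.000148). The direction of Marco, Cd5l and the C1q chains within a library therefore depends on the gene they are divided by. The mean ratios of Clec4f, Vsig4 and Timd4 were lower with each of the 3 denominators, those of Timd4 to Csf1r with overlap. Vsig4 alone had a log2 fold change of -0.05, beside 0.35 for Csf1r and 0.48 for Adgre1, which did not pass, and the called rise of Ptprc. The lower ratios of Vsig4 thus do not show a fall of Vsig4 itself.

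**Figure D3:**
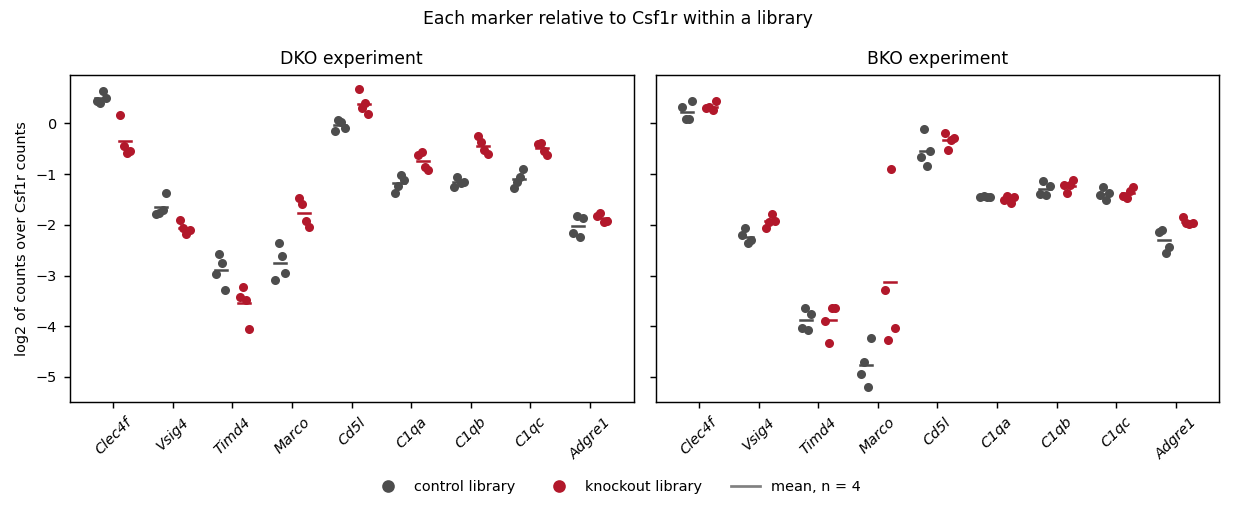
Log2 of each marker's counts over Csf1r counts in the same library, for control (grey) and knockout (red) libraries of each experiment, with group means as lines (n = 4). In the DKO experiment Clec4f and Vsig4 lie below their controls in every library and Marco, Cd5l and the C1q chains above; in the BKO experiment only the Vsig4 and Adgre1 points are fully separated, and the Marco point at the top is F4.

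The second comparison asked the same of BKO livers. None of the members passed: edgeR called 0 of 10 higher and 0 lower, 0 had an unadjusted p under 0.05 (the smallest was 0.0553), and DESeq2 and limma voom also called 0. Of 14061 genes tested, 0.185% were called higher and 0.398% lower. No member had every BKO library above every control in CPM, which 3.64% of genes had. Fitted log2 fold changes of the members ran from 0.06 for C1qa to 2.96 for Marco, with adjusted p-values from 0.445 to 0.966. Marco was at 8.04, 2.52, 75.1 and 3.94 CPM in the BKO livers F1, F3, F4 and F6, and at 2.44, 2.04, 2.71 and 4.50 CPM in the controls F2, F5, F5-2 and F7. The library F4 thus set the group mean, 22.4 ± 35.2 CPM, beside 4.84 ± 2.87 (n = 3) without it and 2.92 ± 1.09 in the controls. The 2460 counts of Marco in F4 stand against 104 to 164 in the other BKO libraries.

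F4 was high for the other markers as well, though by less. Clec4f was at 97.3, 61.2, 168.5 and 87.1 CPM in the BKO livers F1, F3, F4 and F6, and at 93.9, 79.4, 75.04 and 114.5 CPM in the controls F2, F5, F5-2 and F7. Csf1r was at 78.7, 48.5, 140.5 and 64.4 CPM in the BKO livers F1, F3, F4 and F6, and at 74.6, 75.1, 70.3 and 84.6 CPM in the controls F2, F5, F5-2 and F7. In both genes F4 was above and F3 below all 4 controls. C1qc was at 29.1, 17.5, 55.6 and 27.1 CPM in the BKO livers F1, F3, F4 and F6, and at 28.0, 26.5, 29.7 and 32.8 CPM in the controls F2, F5, F5-2 and F7. F3 was below the mean of the other 3 BKO libraries for all 10 members, with a median ratio of 0.481, and F4 was above it with a median ratio of 2.20. Vsig4 ran from 12.6 to 40.8 CPM in BKO livers and from 14.6 to 17.1 in controls, and Cd5l from 33.9 to 112.5 and from 41.9 to 65.01. Timd4 ran from 2.40 to 11.2 CPM in BKO livers and from 4.43 to 6.22 in controls, and Adgre1 from 12.5 to 35.3 and from 12.7 to 17.02. C1qa ran from 18.0 to 47.2 CPM in BKO livers and from 26.2 to 30.9 in controls, and C1qb from 18.8 to 60.6 and from 28.3 to 36.2. Without F4 the fitted direction turned for 8 of the 10 members, all but Marco and Adgre1. The ratios of means then ran from 0.822 for C1qa to 1.10 for Adgre1, with Marco at 1.65.

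**Figure D4:**
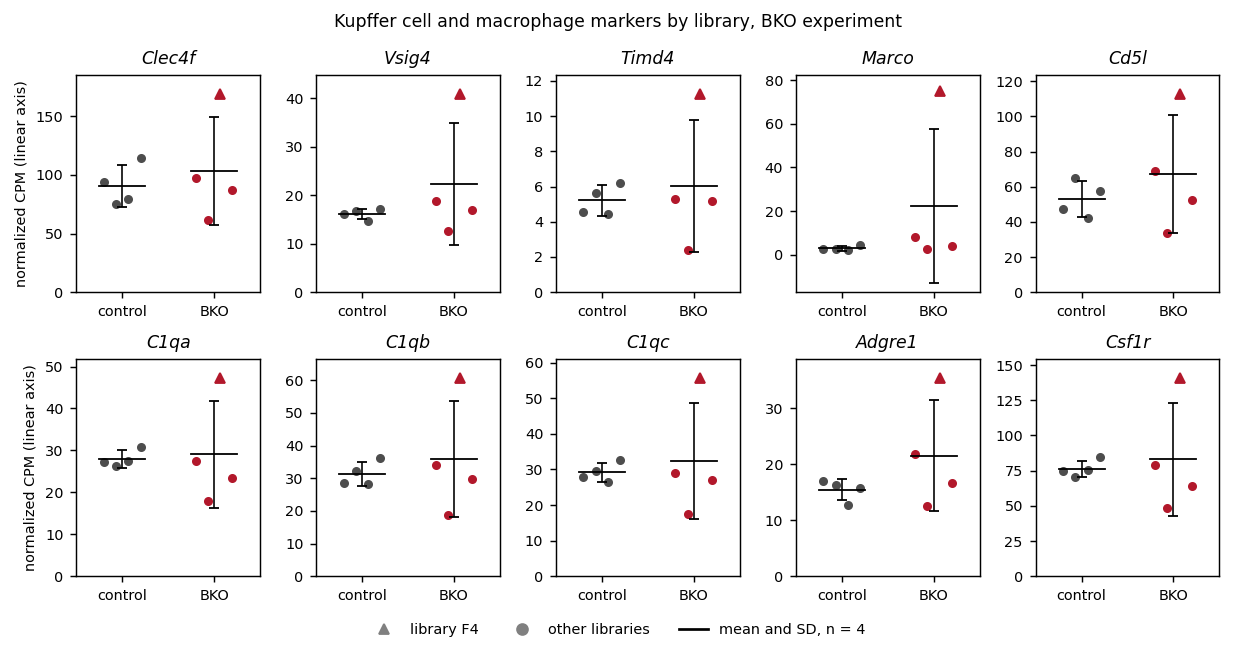
Normalized CPM (linear y axis) of the 10 markers in the 4 control libraries (grey) and 4 BKO libraries (red), 1 point per library, with mean and SD bars; the triangle marks F4. F4 is the highest point in all 10 panels, reaching 75.1 CPM for Marco where the other 7 libraries lie between 2.04 and 8.04.

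The excess of F4 was examined across genes after its values had been seen. Of 9422 genes with at least 5 CPM in F4, 1436 were highest there among the 8 libraries. That cut was set on F4 itself, so genes could enter through a high level in F4. With no library apart, each of the 8 would be highest for an equal share of genes. The count and the ranks are therefore description only. Ranked by the ratio to the highest of the other 7 libraries, Marco was first at 9.34 times, followed by Cxcl13 at 5.80 times and Lyz2 at 2.87 times. Vsig4 ranked 8 at 2.16 times, and Clec4f, the lowest of the members, ranked 102 at 1.47 times. Summed over lists, F4 held 558 CPM of 18 general myeloid genes against 238 to 332 in the other BKO libraries, and 135 CPM of 16 recruited macrophage markers against 77.7 to 88.6. Summed neutrophil markers were at 7.85 CPM in F4 and 3.08 to 4.32 in the other BKO libraries. The part of these in the marker levels of F4 was not tested.

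Relative to Csf1r, BKO libraries overlapped their controls in 7 of 9 ratios. The ratios of Vsig4 (0.240 to 0.291 against 0.195 to 0.238) and Adgre1 (0.251 to 0.277 against 0.170 to 0.232) had every BKO library above every control, as in 0.327% of genes. No ratio had every BKO library below, as in 1.08% of genes. Clec4f over Csf1r was 1.20 to 1.35 against 1.06 to 1.35, and C1qa 0.336 to 0.371 against 0.364 to 0.372. F4, high for every marker alone, had ratios of 1.20 for Clec4f and 0.396 for C1qc, and its ratio of Marco was 0.535 beside 0.0519 to 0.102 in the other BKO libraries. With Adgre1 as denominator 8 of 9 means were lower in BKO livers. C1qa over Adgre1 (1.26 to 1.44 against 1.59 to 2.17), C1qc (1.336 to 1.640 against 1.644 to 2.093) and Csf1r (3.61 to 3.98 against 4.30 to 5.90) had every BKO library below every control, as in 3.93% of genes. None had every BKO library above, as in 0.0996% of genes. The separated ratios thus differed between these denominators. With Ptprc as denominator all 10 ratios overlapped, beside 0.242% of genes with every BKO library above and 2.84% with every one below.

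The difference of the knockout effects was tested over all 16 libraries, since a call in one experiment and none in the other is no test of their difference. edgeR called 0 of 10 members, 3 of them, C1qa, C1qb and C1qc, had an unadjusted p under 0.05, and DESeq2 and limma voom called 0. Of 14050 genes tested, 11.0% were called higher and 11.5% lower. The effect in DKO minus that in BKO was 0.71 for C1qa (SE 0.31, edgeR adjusted p = 0.116), 0.84 for C1qb (SE 0.38, adjusted p = 0.131) and 0.80 for C1qc (SE 0.35, adjusted p = 0.121). For Clec4f it was -0.69 (SE 0.35, 95% interval -1.44 to 0.06, adjusted p = 0.178). Without F4 all 3 C1q chains were called, at 1.05 for C1qa (edgeR adjusted p = 0.00214), 1.22 for C1qb (0.00516) and 1.20 for C1qc (0.00138). With scaling by total counts, which moved the median of all genes from -0.01 to 0.27 and gave 2627 higher and 744 lower calls instead of 1552 and 1610, C1qa and C1qc were called. The difference for Marco was -1.71 (SE 1.23) with F4 and 0.54 without it. The remaining members had differences from -0.59 for Timd4 to 0.40 for Cd5l, with adjusted p-values from 0.324 to 0.969.

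The members varied together between libraries of one group. Each library's log2 level was set against the mean of its own group, and the deviations of 2 members were compared over the 16 libraries, as description. Over the 45 pairs Pearson's r was 0.785 to 0.978, with a median of 0.922. Both values of a pair come from one library and share its depth and scaling. The median r was 0.842 over the 8 DKO experiment libraries and 0.950 over the 8 BKO experiment libraries. Without F4 the median r was 0.852, and without F4 and WT-7069, the libraries that stood apart, it was 0.756. Clec4f and Adgre1 were the least alike pair, with r = 0.785 over 16 libraries and 0.411 without those 2.

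**Figure D5:**
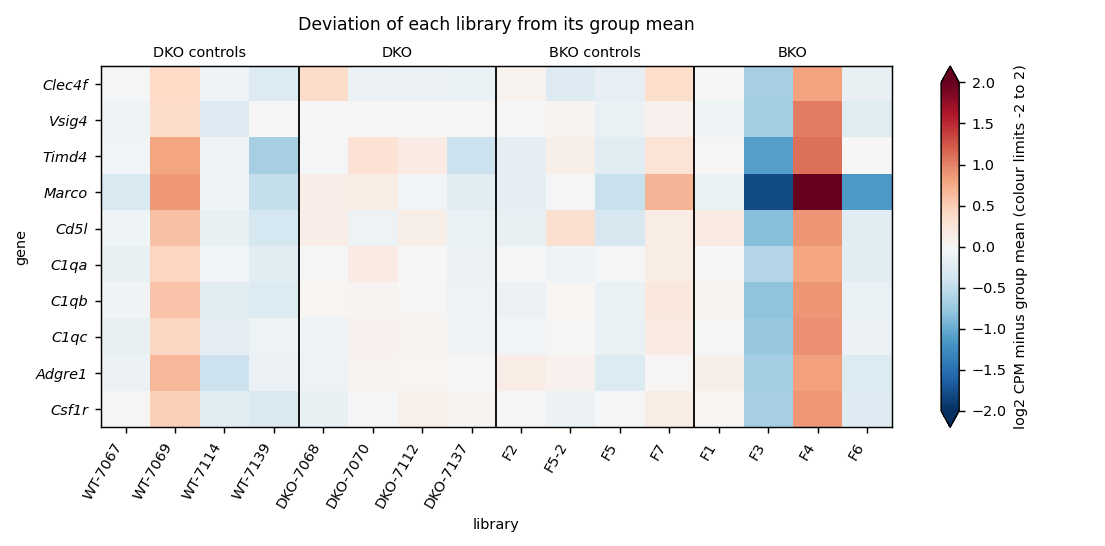
Log2 CPM of each marker (rows) in each of the 16 libraries (columns) minus the mean of that library's group; red is above and blue below the group mean, and the colour scale ends at 2 and -2. The columns of WT-7069 and F4 are red for all 10 markers and that of F3 is blue for all 10.

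The genes outside the members whose deviations were most like those of Clec4f, among 12239 genes, were Vcam1 (r = 0.907, 0.836 without F4), Ctss (0.901, 0.795), Siglec1 (0.901, 0.807), Cd55 (0.890, 0.875) and Axl (0.884, 0.777). Those most like C1qb were Ctss (0.961, 0.916 without F4), Dock11 (0.955, 0.904), Itgb2 (0.942, 0.878), Axl (0.941, 0.885) and Entpd1 (0.935, 0.905). Their changes between DKO livers and controls were read next. Ctss, a macrophage lysosomal protease, had a log2 fold change of 1.44 (edgeR adjusted p = 6.77e-05), and Siglec1, the sialoadhesin of tissue macrophages, one of -0.33 (edgeR adjusted p = 0.137). The 5 genes most like C1qb all rose in DKO livers, at log2 fold changes from 0.98 for Dock11 to 1.56 for Itgb2. Of those most like Clec4f, Vcam1, Ctss and Axl rose, and Siglec1 and Cd55 did not pass.

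Other genes of the Kupffer cell were read from lists, with the median over all genes, 0.02, as the reference for the medians given here. The counts of DKO calls here and in the lists below stand beside 19.2% of all 12848 tested genes called higher and 16.6% lower. A count near these shares is not read as a change of its list. Of 19 tested genes of the wider Kupffer cell signature, 4 rose, 5 fell and 10 did not pass in DKO livers (median log2 fold change 0.06). Il18bp, which encodes a secreted inhibitor of IL-18, rose 2.22-fold, from 15.1 ± 2.77 to 33.5 ± 2.11 CPM, and the integrin gene Itga9 rose 1.49-fold, from 43.9 ± 4.34 to 65.1 ± 5.16. The organic anion transporter Slco2b1 was 5.86-fold lower, at 41.5 ± 21.6 against 243.2 ± 34.5 CPM, and the ficolin gene Fcna was 2.43-fold lower, at 11.8 ± 5.26 against 28.7 ± 3.35. Slco2b1 is also expressed by hepatocytes. Cd163 and Cd207, named after their values were seen, moved apart: Cd163, the haemoglobin scavenger receptor, was at 6.39 ± 4.74 against 36.7 ± 10.2 CPM (log2 fold change -2.54, edgeR adjusted p = 0.0115), and Cd207, the lectin gene beside Clec4f, was at 6.35 ± 3.08 against 1.76 ± 0.868 CPM (1.84, edgeR adjusted p = 0.00714).

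Of 14 transcription factors of macrophage and Kupffer cell identity, 4 rose, 2 fell and 8 did not pass (median 0.46). Spi1, encoding PU.1, rose 2.38-fold, from 5.54 ± 0.751 to 13.2 ± 1.91 CPM, and Irf8 rose 2.12-fold, from 11.7 ± 3.25 to 24.8 ± 5.67. Nr1h3, encoding LXR alpha, was 1.28-fold lower, at 68.8 ± 6.99 against 88.2 ± 11.998. Hepatocytes also express Nr1h3. Of 10 niche ligands, made by other liver cells to keep Kupffer cells in place, 2 rose, 3 fell and 5 did not pass (median -0.10). The Notch ligand Dll1 rose 2.01-fold, from 13.2 ± 2.84 to 26.5 ± 3.59 CPM, and Tgfb1 rose 1.89-fold, from 12.99 ± 2.51 to 24.5 ± 4.79. Bmp2 was 1.77-fold lower, at 16.4 ± 1.83 against 29.1 ± 4.02 CPM, and Bmp10 was 5.39-fold lower, at 0.367 ± 0.384 against 1.98 ± 0.503. Bmp10 lay near the floor in DKO livers, at 0 to 0.821 CPM, so the size of its change is uncertain. It passed the filter on low counts through the controls, where it was higher. Its lower call, among the 3, was thus favoured in advance. The CSF1R ligands did not pass, with Csf1 at a log2 fold change of 0.13 (edgeR adjusted p = 0.689) and Il34 at -0.65 (edgeR adjusted p = 0.107).

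Of 10 tested genes of CSF1R signalling, 6 rose and 4 did not pass (median 0.86), among them Inpp5d, encoding the phosphatase SHIP1, which rose 2.29-fold, from 11.4 ± 2.17 to 25.97 ± 0.807 CPM. Of 10 genes listed for the classical complement pathway outside C1q, 2 rose and 8 did not pass (median 0.09). The list also holds Cd93, C1qbp and Calr, which are not components of the pathway. The components that act next to C1q did not pass, with C1ra at 204.2 ± 29.9 against 180 ± 20.9 CPM (log2 fold change 0.18, edgeR adjusted p = 0.336) and C1s1 at 458 ± 65.8 against 382 ± 27.0 (0.26, edgeR adjusted p = 0.168). Cd93 rose 2.84-fold, from 13.5 ± 2.62 to 38.3 ± 6.01 CPM, and C3, the central component made by hepatocytes, rose 1.66-fold. Of 8 tested relatives of C1q with a collagen-like stalk, 1 rose, 5 fell and 2 did not pass (median -0.84). C1qtnf6 rose 4.63-fold, from 1.86 ± 0.254 to 8.59 ± 2.09 CPM, and the mannose-binding lectin Mbl2, made by hepatocytes, was 5.22-fold lower, at 60.4 ± 12.02 against 315.2 ± 14.4. Colec10 was 4.51-fold lower, at 7.48 ± 3.95 against 33.7 ± 5.01 CPM. Of 15 tested receptors and bridges for dying cells and particles, 6 rose, 1 fell and 8 did not pass (median 0.45). Axl, a bridge-dependent phosphatidylserine receptor, rose 2.15-fold, from 42.2 ± 6.38 to 90.8 ± 9.40 CPM, Havcr2, encoding TIM3, rose 8.61-fold, from 0.574 ± 0.377 to 4.95 ± 1.35, and Colec12 was 2.17-fold lower, at 27.3 ± 5.37 against 59.2 ± 3.91. At its control level Havcr2 passed the filter on low counts through the DKO libraries, where it was high. Its higher call, among the 6, was thus favoured in advance.

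Markers of recruited and lipid-associated macrophages were also higher in DKO livers. In DKO livers 12 of 14 tested rose and 2 did not pass (median log2 fold change 3.59), and their summed level was 687 to 1576 CPM against 91.6 to 173 in controls. Cd63 rose 32.6-fold, from 2.92 ± 0.987 to 95.1 ± 10.7 CPM, and Mmp12 rose 98-fold, from 0.215 ± 0.113 to 21.1 ± 6.37. At that control level Mmp12 passed the filter on low counts through the DKO libraries, where it was high. Its higher call was thus favoured in advance, and the count of 12 and the median include it. Trem2 and Gpnmb, which failed this filter in the BKO experiment, may have entered in the same way. Several of these genes, Cd63, Cd9, Spp1 and Cd44 among them, are also expressed by epithelial cells. Of 18 general macrophage and myeloid genes, 16 rose and 2 did not pass (median 1.48), and their summed level was 651 to 1008 CPM against 295 to 419. Cd68 rose 2.99-fold, from 9.96 ± 1.65 to 29.8 ± 1.77 CPM, and Sirpa rose 2.97-fold, from 28.8 ± 3.96 to 85.7 ± 14.7. The members, with a median of 0.62, summed to 626 to 691 CPM against 393 to 667 in controls. The part of other myeloid cells in the rises of Marco, Cd5l and the C1q chains was not tested.

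Markers of other cell types moved with the DKO group too. Of 9 listed neutrophil markers 3 were tested, all higher, and the others failed the filter on low counts or were absent. S100a8 and S100a9, at 0.334 and 0.243 CPM in controls, passed that filter through the DKO libraries, where they were high. Their calls were thus favoured in advance, as were those of the dendritic cell genes Siglech and Ccr7 (0.693 and 0.315 CPM in controls). The 8 neutrophil markers present summed to 12.2 to 65.2 CPM against 3.15 to 6.49 in controls. Of 6 tested dendritic cell markers 3 rose and 3 did not pass, at a summed 21.7 to 28.2 CPM against 16.0 to 20.5. Of 10 listed T and NK cell markers only Cd4 was tested, and of 7 listed B and plasma cell markers only Jchain. The others failed the filter or were absent. Cd4 and Jchain were called higher, each with groups that overlapped. The T and NK cell markers present summed to 6.94 to 11.97 CPM against 3.91 to 6.21. The B and plasma cell markers present summed to 5.83 to 9.27 CPM against 2.35 to 6.21. Of 12 endothelial markers of the sinusoids, 1 rose and 4 fell, the other 7 not passing, at 749 to 822 CPM against 809 to 1004. Hepatocyte markers, with 1 of 9 higher, 5 lower and 3 not passed, summed to 80679.7 to 111332 CPM against 130653 to 155210, and all 8 proliferation genes rose, at 84.9 to 153 against 16.2 to 22.8. Of these 8, Plk1, at 0.334 CPM in controls, also passed the filter through the DKO libraries, so its call was favoured in advance. Ccnb1 and Bub1, which failed the filter in the BKO experiment, may have entered in the same way. No defining marker of these cell types was at 0 in all libraries of a group. Their part in the member changes was not tested.

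In BKO livers edgeR called 0 of the 158 tested genes of these lists outside the members, 14 had an unadjusted p under 0.05, 10 of them higher and 4 lower, DESeq2 called 1 higher and 2 lower, and limma voom called 0. For the difference of the effects, 12 of 15 recruited macrophage markers and 8 of 18 general myeloid genes were called higher in DKO. Beside these stand 0 of the 10 members, or 3 without F4, and 11.0% of all genes tested. Trem2, Gpnmb and Mmp12 failed the filter on low counts in the BKO experiment. They entered the joint test through the DKO experiment, so a higher call was favoured in advance.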

How the data were processed

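Liver RNA had been extracted with TRIzol and made into Nugen Ovation libraries, per the labels' protocols. The deposited values were raw counts per gene, whole and not normalized, in 1 table per experiment. The submitters' processing notes name featureCounts 1.6.2, HISAT2 2.1.0 and Trim Galore 0.4.1. Strand setting and annotation of the counting are not stated in the sources used. Groups follow the genotypes of the labels. P-values measure the spread between these libraries, and no source used says whether F5 and F5-2 were 1 animal.

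Robust quasi-likelihood tests were run with edgeR 4.0.16 in R 4.3.3 on genes kept by filterByExpr, with TMM scaling. Each experiment was fitted alone, and the difference of effects over all 16 libraries. Calls are at a Benjamini-Hochberg adjusted p under 0.05 over all genes tested. Standard errors are the log2 fold change over the square root of F. Steps were tested on simulated data. In the BKO experiment 27 names had turned into dates, and the joint fit of 24394 genes leaves them out. Alternatives used DESeq2 1.42.0 and limma 3.58.1. Locations and exon lengths are from GENCODE M21 on GRCm38, matched by symbol for 10 of 10 members. Named genes were all members, up to 2 higher and 2 lower called genes of each other list with the smallest p and a mean log2 CPM not below 0, and the 5 genes most like Clec4f and C1qb. The members and the other 16 lists were chosen with earlier results of these data known. The values of 1 gene of the transcription factor list are not reported here, and the list's counts include it.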

Additional observations from a re-analysis of the deposited data

Results flagged for a closer look

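In 3 of the 40 groups of 4 libraries examined (10 markers in 4 groups), 1 library lay far from the other 3, by a gap test on the group's range that chance meets in about 1 in 20 groups. Clec4f in DKO livers was at 111.5 CPM in DKO-7068 and at 78.3 to 79.8 in the other 3 libraries. Marco in BKO livers was at 75.11 CPM in F4 and at 2.52 to 8.04 in the other 3 libraries. C1qc in DKO controls was at 52.89 CPM in WT-7069 and at 34.8 to 36.97 in the other 3 libraries.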

How the results depend on the processing

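In DKO livers the 5 higher calls were kept when any 1 library was left out, with 5 to 7 members called higher, and 3 were called with all 16 libraries in one fit. The count of members called lower was 1, Clec4f, with DESeq2 size factors, with no filter on low counts, by the DESeq2 Wald test, with the term for library numbers and with DKO-7068 and DKO-7070 summed, and 0 to 1 when 1 library was left out. For the difference of effects, 2 members were called higher with total counts only, and 0 to 3 when 1 library was left out. Genes called in BKO livers numbered 82, and 355 by the DESeq2 Wald test, 50 with all 16 libraries in one fit and 17 to 104 when 1 library was left out.

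The directions that turned belonged to values that had not been called. Vsig4 in DKO turned to 0.13 with total counts and ran from -0.14 to 0.090 when 1 library was left out. In BKO, C1qa turned to -0.016 with total counts and -0.042 by voom, and Timd4 to -0.029 by voom. Leaving out 1 library gave BKO values, lowest without F4 and highest without F3, of -0.15 to 0.38 for Clec4f, -0.0074 to 0.67 for Vsig4, -0.29 to 0.48 for Timd4, -0.036 to 0.56 for Cd5l, -0.29 to 0.23 for C1qa, -0.19 to 0.41 for C1qb, -0.26 to 0.35 for C1qc and -0.26 to 0.31 for Csf1r. The difference for Adgre1 turned to 0.25 with total counts, 0.12 by voom and 0.0037 with F5 and F5-2 summed. It ran from -0.21 without F3 to 0.32 without F4 when 1 library was left out, and that for Marco from -2.08 to 0.54, again without F3 and F4. DESeq2 gave no adjusted p for Marco in BKO livers or for its difference. With total counts the BKO calls split into 22 higher and 86 lower, beside 26 and 56. No paired analysis was possible because the groups share no replicate numbers. The means and correlations without F4, F3, WT-7069 or DKO-7068 and the ranking of genes by their excess in F4 were chosen after seeing the data. The cause of these changes was not tested. Timd4 had 56 to 207 counts per library in the DKO experiment, and the part of depth in its interval was not tested.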
